A study of Arabidopsis thaliana with 18 samples.

Results

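Glutathione transferases are encoded by a large gene family in Arabidopsis thaliana, and 14 of its genes were followed here across root arrays of 3 genotypes at 2 iron supplies. The members are all genes whose symbol in the platform annotation is a GST name followed by a class letter and a number. Each of the 14 had a single probe set, of 22746 probe sets tested and 13513 that named 1 gene. By class there were 11 tau genes, 2 phi genes (GSTF4 and ATGSTF13) and 1 lambda gene (GSTL3). By chromosome, 11 lie on chromosome 1, 2 on chromosome 3 (GSTU27 and ATGSTF13) and 1 on chromosome 5 (GSTL3). The RefSeq gene table names 48 GST genes, and the other 34 had no probe set of their own in the annotation used and were not analysed here.

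The 6 groups, with 3 biological replicates each, were ubc13A without Fe and with Fe, CsUBC13-OE without Fe and with Fe, and the Col-0 wild type without Fe and with Fe. The ubc13A line is labelled ubc13-/- and is a mutant of an Arabidopsis gene for a ubiquitin-conjugating enzyme, CsUBC13-OE overexpresses the cucumber UBC13 gene, and all lines are in the Col-0 strain. Seedlings were moved at an age of 10 days to a medium that held the iron chelate FeEDTA or had none added, and roots were harvested 3 days later. The promoter of the transgene and the number of independent lines are not given in the sources used here, nor is any date of hybridisation.

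Glutathione transferases join the tripeptide glutathione to electrophilic compounds, and conjugates are then moved into the vacuole. Tau and phi enzymes are the main plant classes in the detoxification of herbicides and other foreign compounds, and many of their genes are induced by chemical and oxidative stress. Lambda enzymes instead act as glutathione-dependent reductases. Glutathione is made from cysteine, so the family depends on sulfate assimilation, the pathway that reduces sulfate to sulfide.

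Signals are linear intensities, and arrays carry no read depth, so the number of arrays limits the precision. The 18 arrays had 2% trimmed means from 495.5 to 496.2, and correlations between arrays ran from 0.958 to 0.991. Of the root markers listed for a check of the tissue, 2 of 14 had a probe set named for them in the annotation used. That annotation left 8730 of the 22746 probe sets unnamed, so the other markers are not shown to be absent from the array. The 2 were the root hair genes EXPA7 (328 to 865.7) and XTH26 (34.2 to 270.5), of which XTH26 fell without Fe (mean log2 change -0.87). Of 8 green shoot markers 4 had a named probe set, and none of these 4 was near 0. Their summed signal was 1857 to 2544 in ubc13A without Fe against 2232 to 3140 with Fe, 1911 to 2637 in CsUBC13-OE without Fe against 3778 to 4017 with Fe, and 2436 to 2746 in Col-0 without Fe against 3291 to 4078 with Fe. Of these 4, RCA (-0.66), LHCB4.1 (-0.48) and PSAE-1 (-0.47) fell without Fe in the mean of the genotypes, alongside the changes given below, and their part in those changes was not tested. In whole roots, a change in the number of cells of a type and a change in RNA per cell cannot be told apart.

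Most members gave clear signals, and 4 were dim. GSTU15 (AT1G59670) lay between 1.8 and 27 on all arrays, GSTU21 (AT1G78360) between 17.5 and 89, GSTU16 (AT1G59700) between 25.5 and 115.3, and GSTU18 (AT1G10360) between 74.8 and 137. No detection calls were used, so GSTU15 is not shown to lie above background. The other 10 had signals between 227.3 and 5810 on every array. Probe sets differ in their response, so levels are compared between arrays and not between genes.

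**Figure D1:**
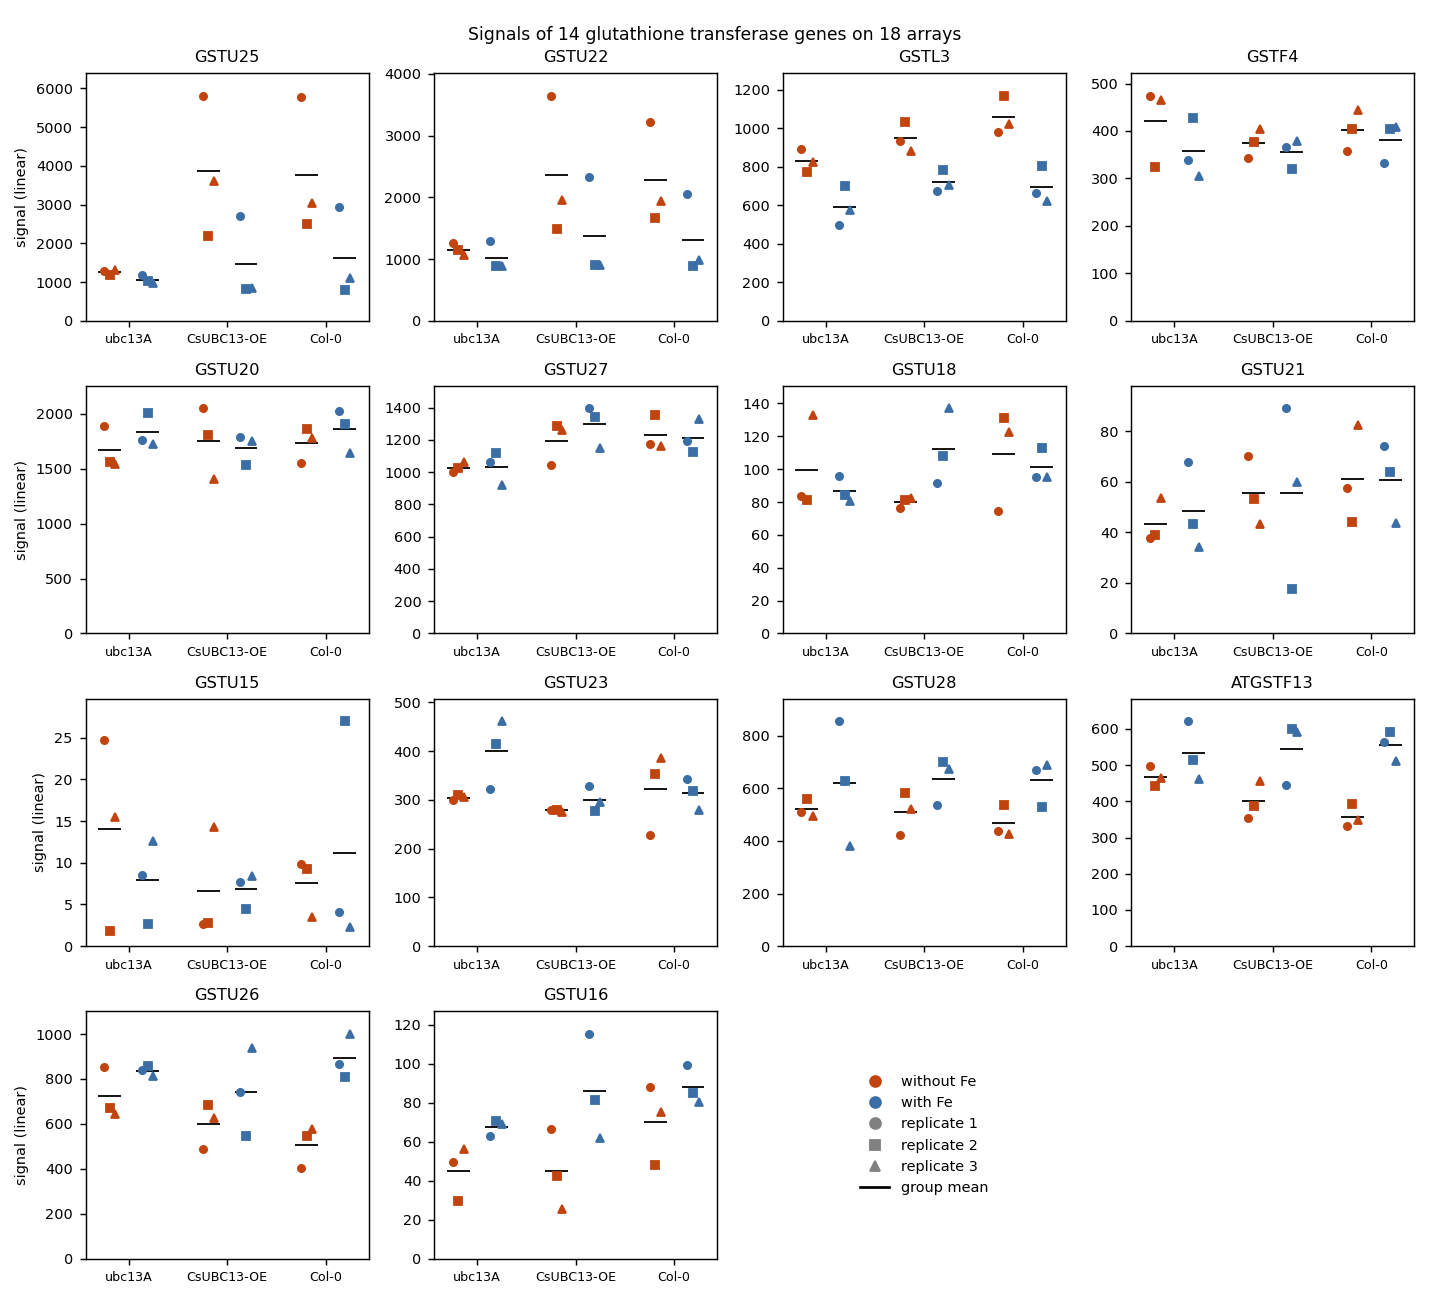
Signal (linear scale) of each of the 14 genes on 18 arrays, by genotype, with red for arrays without Fe and blue for arrays with Fe; marker shape gives the replicate number and bars are group means (n = 3). GSTU25, GSTU22 and GSTU16 are highest on the replicate 1 array in each group of CsUBC13-OE and Col-0, while GSTU20 stays between 1403 and 2048 on all arrays.

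Removing Fe changed 5 of the 14 genes when the change was averaged over the 3 genotypes. GSTL3 and GSTU25 rose, and GSTU26, ATGSTF13 and GSTU16 fell. Of all probe sets, 14.2% were called in the same comparison (5.79% higher and 8.46% lower), by limma on log2(signal + 16) with Benjamini-Hochberg adjustment over all probe sets and a threshold of 0.05. The median change of the 14 was -0.048 on the log2 scale, and that of all probe sets was -0.047. The log2 change pointed the same way in all 3 genotypes for 8 members (57.1%), 4 higher and 4 lower, where 47.2% of all probe sets do so.

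GSTL3 (AT5G02790), the lambda gene, had the smallest adjusted p of the family. Its signals without Fe were 891.7, 770.6 and 824.5 in ubc13A, against 497.1, 702.7 and 577.9 with Fe. They were 935.4, 1032 and 884.2 in CsUBC13-OE without Fe, against 676.1, 784.3 and 703.3 with Fe, and 981.4, 1169 and 1025 in Col-0 without Fe, against 662.4, 801.9 and 620 with Fe. In each genotype the 3 arrays without Fe lay above the 3 arrays with Fe. GSTL3 rose 1.41-fold on average (log2 change 0.49, SE 0.079, adjusted p = 0.000455 by limma), and it was called in all 18 fits that left out 1 array.

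ATGSTF13 (AT3G62760), a phi gene, moved the other way. Its signals were 497.1, 441.2 and 464.3 in ubc13A without Fe, against 621.8, 513.8 and 462.1 with Fe. In CsUBC13-OE they were 354.8, 388.1 and 455.9 without Fe, against 444.9, 601 and 591.8 with Fe, and in Col-0 330.8, 392.7 and 349.1 without Fe, against 564, 592.8 and 510.4 with Fe. The groups were apart in Col-0 and overlapped in the other lines. ATGSTF13 fell by 0.41 on the log2 scale on average (SE 0.082, adjusted p = 0.0032 by limma), a call that stood in all 18 fits without 1 array.

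GSTU26 (AT1G17190), a tau gene known to respond to chloroacetanilide herbicides, also fell. Its signals were 854.5, 669.5 and 644.6 in ubc13A without Fe, against 840.7, 859.9 and 812.6 with Fe, and 489.1, 685.1 and 626.7 in CsUBC13-OE without Fe, against 744.2, 548 and 938.4 with Fe. In Col-0 they were 402, 545.2 and 577.9 without Fe, against 867.1, 809.7 and 1002 with Fe. Col-0 was again the line in which the groups did not overlap. The mean fall of GSTU26 was -0.44 (SE 0.11, adjusted p = 0.0152 by limma). Without the 6 replicate 1 arrays, an alternative chosen after the values were seen, it was -0.38 with an adjusted p of 0.127.

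GSTU16, a tau gene with dim signals, fell too. Its signals were 49.5, 29.4 and 56.3 in ubc13A without Fe, against 62.7, 70.8 and 69.1 with Fe. In CsUBC13-OE they were 66.6, 42.6 and 25.5 without Fe, against 115.3, 81.5 and 61.7 with Fe, and in Col-0 87.8, 48 and 75 without Fe, against 99.5, 85 and 80.1 with Fe. The groups were apart in ubc13A and overlapped in the other lines. Its mean fall was -0.51 (SE 0.15, adjusted p = 0.0294 by limma). That call ended under quantile normalization (-0.43, adjusted p = 0.0878), after centring each array on its median (-0.46, adjusted p = 0.0603), without the replicate 1 arrays (adjusted p = 0.0545) and in 5 of the 18 fits without 1 array (those without Col-0 with Fe replicate 1, Col-0 without Fe replicate 2, CsUBC13-OE with Fe replicate 1, CsUBC13-OE without Fe replicate 3 or ubc13A without Fe replicate 2), with adjusted p-values of up to 0.0611.

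GSTU25 (AT1G17180) and GSTU22 (AT1G78340) had the widest spread between replicates in the family, with residual SDs of 0.68 and 0.55 on the log2 scale against a median of 0.23 over all probe sets. GSTU25 encodes a tau enzyme known to conjugate the explosive TNT. Its signals without Fe were 1289, 1188 and 1308 in ubc13A, 5810, 2194 and 3604 in CsUBC13-OE, and 5769, 2487 and 3035 in Col-0, in the order of replicates 1, 2 and 3. With Fe they were 1190, 1037 and 964.1 in ubc13A, 2694, 831.5 and 842.9 in CsUBC13-OE, and 2930, 792.2 and 1107 in Col-0. The replicate 1 array was thus the highest in each of the 4 groups of CsUBC13-OE and Col-0, by 2.004-fold to 3.22-fold over the mean of the others. In ubc13A it exceeded that mean by 1.03-fold without Fe and 1.19-fold with Fe.

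GSTU22 had the same pattern. Without Fe its signals were 1258, 1144 and 1060 in ubc13A, 3645, 1481 and 1956 in CsUBC13-OE, and 3225, 1668 and 1939 in Col-0. With Fe they were 1294, 881 and 888.3 in ubc13A, 2325, 903.7 and 902.9 in CsUBC13-OE, and 2049, 880 and 983.6 in Col-0. Replicate 1 exceeded the mean of the others by 1.79-fold to 2.57-fold in the CsUBC13-OE and Col-0 groups and by 1.14-fold and 1.46-fold in ubc13A without and with Fe. An F test of the replicate number over the 12 arrays of CsUBC13-OE and Col-0, chosen after the values were seen, gave limma adjusted p-values of 0.0202 for GSTU25 and 0.0139 for GSTU22, and of 0.258 or more for the other 12 members. It called 0.541% of all probe sets. GSTU16 was also highest on the replicate 1 array in each of these 4 groups, by 1.21-fold to 1.96-fold over the mean of the others (F test adjusted p = 0.258). With GSTU25 and GSTU22 this makes 3 of 14 members, a count made after the values were seen, where 5.5% of all probe sets have this order. The labels do not say what a replicate number shares.

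Deviations of same-numbered arrays with and without Fe correlated over all probe sets above 0.1 in every pair of Col-0 only. For replicates 1, 2 and 3 the correlations were 0.202, -0.0592 and -0.0126 in CsUBC13-OE and 0.0748, 0.00881 and 0.0913 in ubc13A. In these 2 lines the arrays are set side by side by number, and a pairing by number is not shown. For GSTU25 the ratio of the array without Fe to the same-numbered array with Fe was 1.08, 1.15 and 1.36 in ubc13A, 2.16, 2.64 and 4.28 in CsUBC13-OE, and 1.97, 3.14 and 2.74 in Col-0. For GSTU22 the ratios were 0.972, 1.298 and 1.19 in ubc13A, 1.57, 1.64 and 2.17 in CsUBC13-OE, and 1.57, 1.90 and 1.97 in Col-0. Set side by side by number, every ratio in CsUBC13-OE and Col-0 exceeded all 3 ratios of the same gene in ubc13A. The order rests on that numbering, since in CsUBC13-OE GSTU25 replicate 2 without Fe (2194) lay below replicate 1 with Fe (2694). How many of all probe sets have this order was not counted. By limma 0 of the 14 members differed in Fe response between ubc13A and Col-0, so a weaker response in ubc13A is not shown. Averaged over genotypes, GSTU25 rose 2.05-fold (log2 change 1.04, SE 0.29, adjusted p = 0.026 by limma), a call that held in 12 of 18 fits without 1 array, where the adjusted p ran from 0.00519 to 0.056. The 6 others were those without Col-0 with Fe replicate 2 or 3, Col-0 without Fe replicate 1, CsUBC13-OE with Fe replicate 2 or 3, or CsUBC13-OE without Fe replicate 1. GSTU22 stood at 0.62 (SE 0.24, adjusted p = 0.102 by limma) and did not pass. Without the 6 replicate 1 arrays both were called, GSTU25 at 1.19 (adjusted p = 0.00115) and GSTU22 at 0.72 (adjusted p = 0.00173), and GSTU22 was also called without CsUBC13-OE with Fe replicate 1 or without Col-0 with Fe replicate 1 alone.

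**Figure D2:**
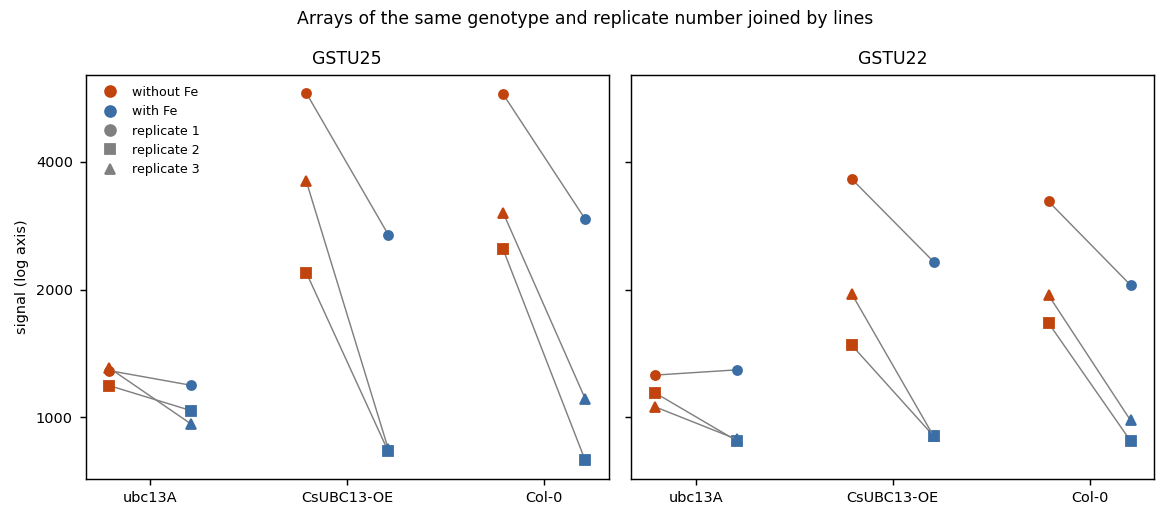
Signal (log axis) of GSTU25 and GSTU22 on each array, with lines joining the arrays without Fe (red) and with Fe (blue) that share a genotype and a replicate number. In CsUBC13-OE and Col-0 every line falls from the array without Fe to the array with Fe, from 2.16-fold to 4.28-fold and from 1.97-fold to 3.14-fold for GSTU25, and the ubc13A lines are the flattest. A pairing by number is not shown in CsUBC13-OE and ubc13A.

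In Col-0 taken alone, 3 members changed, against 4.26% of all probe sets called. GSTL3 rose by a log2 change of 0.60 (SE 0.14, adjusted p = 0.0183 by limma), while ATGSTF13 fell by 0.61 (SE 0.14, adjusted p = 0.0205) and GSTU26 fell by 0.80 (SE 0.19, adjusted p = 0.0248). These were also the 3 members whose groups did not overlap, where 22% of all probe sets do not. The 3 calls rest on few arrays: between 0 and 2 of the members were called in the 6 fits that left out 1 Col-0 array, with 0 called without Col-0 with Fe replicate 1, 1 called without Col-0 with Fe replicate 3 or Col-0 without Fe replicate 1 or 3, and 2 called without replicate 2 of either group. A fit of the 6 Col-0 arrays alone called 0. Without the replicate 1 arrays of all groups none of these 3 genes passed (adjusted p = 0.104 to 0.233), whereas GSTU25 (1.54, adjusted p = 0.0145) and GSTU22 (0.94, adjusted p = 0.019) did. Same-numbered Col-0 arrays deviated together weakly, at correlations of 0.261, 0.112 and 0.153. With the replicate number as a block 5 members were called, GSTU25 (1.35, adjusted p = 0.0248) and GSTU22 (0.84, adjusted p = 0.0316) being added, against 4.74% of all probe sets. Without the block their adjusted p-values were 0.188 and 0.35. With a block set within each genotype, an alternative chosen after the values were seen, 4 members were called and GSTU26 was not among them (-0.80, adjusted p = 0.0558).

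In CsUBC13-OE 0 members passed limma's test, against 4.33% of all probe sets. Of the 22746 probe sets 3397 had an unadjusted p under 0.05, and of the 14 members 4 had. These 4 were GSTU25 (log2 change 1.52, SE 0.50, adjusted p = 0.127), GSTU16 (-0.77, adjusted p = 0.129), ATGSTF13 (-0.43, adjusted p = 0.126) and GSTL3 (0.39, adjusted p = 0.155). GSTU18 stood at -0.40 without passing, and its arrays without Fe (76.4, 81.3 and 82.5) lay below those with Fe (91.7, 107.8 and 137). Groups were apart for GSTL3 and GSTU18, 2 of 14, against 19.8% of all probe sets. Without the replicate 1 arrays GSTU25 (1.73, adjusted p = 0.00776) and GSTU22 (0.90, adjusted p = 0.021) were called. Without CsUBC13-OE with Fe replicate 1 alone 2 members were called, and without CsUBC13-OE without Fe replicate 1 alone 1 was.

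In ubc13A 0 members passed limma's test as well, against 3.72% of all probe sets. The unadjusted p was under 0.05 for 2 of the 14 members and for 3797 of the 22746 probe sets. The 2 members were GSTL3 (log2 change 0.48, SE 0.14, adjusted p = 0.0658) and GSTU23 (-0.36, SE 0.17, adjusted p = 0.295). GSTU23 (AT1G78320) had 298.7, 310.1 and 305.5 without Fe in ubc13A against 322.7, 415.1 and 461.6 with Fe. GSTU25 stood at 0.25 with a 95% interval from -0.83 to 1.32, and GSTU22 at 0.19 with one from -0.68 to 1.07. Groups did not overlap for GSTL3, GSTU16 and GSTU23, against 21.8% of all probe sets. GSTL3 was called in the fit without ubc13A with Fe replicate 2.

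**Figure D3:**
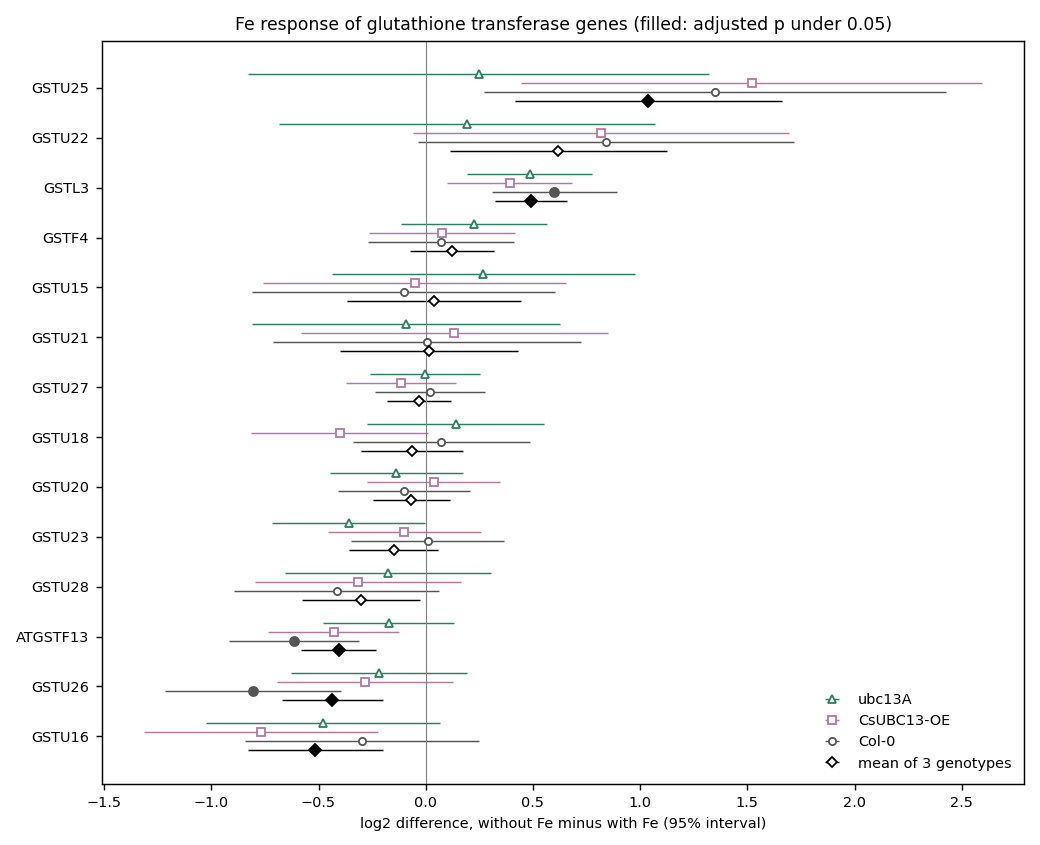
Log2 difference without Fe minus with Fe for each gene in ubc13A, CsUBC13-OE, Col-0 and as the mean of the 3, with 95% intervals from the fit of 18 arrays; filled symbols have an adjusted p under 0.05. GSTL3 lies above 0 in every line, from 0.39 to 0.60, and the changes of GSTU25 range from 0.25 to 1.52.

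Among the members that did not pass in any comparison, GSTU20 and GSTU27 were the most even. GSTU20 (AT1G78370), which encodes a tau enzyme that binds the jasmonate-conjugating enzyme FIN219, lay between 1403 and 2048 on all 18 arrays, and its mean Fe difference was -0.067 with a 95% interval from -0.25 to 0.11. GSTU27 (AT3G43800) lay between 918.2 and 1396, with a mean difference of -0.033 and an interval from -0.18 to 0.12, whose sign turned after median centring. The intervals of both exclude a change as large as the fall of ATGSTF13. GSTF4 (AT1G02950) stood at 0.12 (interval -0.073 to 0.32), GSTU23 at -0.15 (-0.36 to 0.055) and GSTU28 (AT1G53680) at -0.30 (-0.58 to -0.026, adjusted p = 0.147). For GSTU15, GSTU18 and GSTU21 the mean differences were 0.038, -0.063 and 0.015, with intervals from -0.37 to 0.45, from -0.30 to 0.18 and from -0.40 to 0.43. The sign of GSTU18 turned under quantile normalization.

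The question of whether loss of UBC13A altered the family was addressed by comparing ubc13A with Col-0 at each supply. With Fe, 0 of 14 members passed limma's test (0.0132% of all probe sets were called). An unadjusted p under 0.05 was found for 0 members and for 2238 of the 22746 probe sets. Without Fe, 0 members passed (0.0484% of all probe sets), and 5 had an unadjusted p under 0.05, as had 2524 of the 22746 probe sets. GSTU25 averaged 1262 ± 64 in ubc13A without Fe against 3764 ± 1759 in Col-0 without Fe (SD, n = 3), a log2 difference of -1.47 (SE 0.50, adjusted p = 0.278). The highest ubc13A array, 1308, lay below the lowest Col-0 array, 2487, and below the lowest CsUBC13-OE array, 2194. With Fe the difference of GSTU25 was -0.37, and the ubc13A arrays lay within the range of Col-0. Without the replicate 1 arrays it was -1.13 without Fe (adjusted p = 0.229), while with Fe its sign turned (0.093, adjusted p = 0.966).

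GSTU22 averaged 1154 ± 99 in ubc13A without Fe against 2277 ± 832 in Col-0 without Fe (log2 difference -0.92, adjusted p = 0.434 by limma), again with no overlap. The other 3 were GSTU26, at 0.50 (722.9 ± 114.7 in ubc13A against 508.4 ± 93.6 in Col-0), ATGSTF13, at 0.37 (467.5 ± 28.1 in ubc13A against 357.5 ± 31.8 in Col-0), and GSTL3, at -0.35 (828.9 ± 60.7 in ubc13A against 1058 ± 98 in Col-0). Their adjusted p-values were 0.34, 0.334 and 0.353. Without Fe the ubc13A and Col-0 arrays did not overlap for these 5 members and GSTU27, 6 of 14, where 17.7% of all probe sets do not. With Fe they did not overlap for GSTU16 and GSTU27, against 15.9%.

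Averaged over both supplies, 0 members passed in ubc13A against Col-0 (0.725% of all probe sets were called). The unadjusted p was under 0.05 for 4 members and for 3409 of the 22746 probe sets. The 4 members were GSTU25 (-0.92, adjusted p = 0.24), GSTU16 (-0.41, adjusted p = 0.31), GSTL3 (-0.29, adjusted p = 0.175) and GSTU27 (-0.24, adjusted p = 0.196), all lower in ubc13A. Without the replicate 1 arrays the difference of GSTU25 averaged over supplies was -0.52 (adjusted p = 0.336). Whether the ubc13A arrays were run apart from the rest is not stated, so such a batch and the genotype cannot be told apart.

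Overexpression of CsUBC13 gave no member that passed. At either supply 0 of 14 were called in CsUBC13-OE against Col-0 by limma (0.0132% of all probe sets at each). At either supply 0 members had an unadjusted p under 0.05, against 633 of the 22746 probe sets with Fe and 792 without. No member had groups that did not overlap, where 6.59% of all probe sets had with Fe and 8.9% without. Averaged over supplies 0 were called (0.0176% of all probe sets), and the 3 largest differences were those of GSTU16 (-0.29, 95% interval -0.68 to 0.092), GSTU21 (-0.16, -0.67 to 0.34) and GSTU18 (-0.12, -0.41 to 0.17). For GSTU25 the averaged difference was -0.060, but its interval ran from -0.82 to 0.70. That of GSTU27 was the narrowest, -0.16 to 0.21. CsUBC13-OE and ubc13A were set against the same Col-0 arrays.

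**Figure D4:**
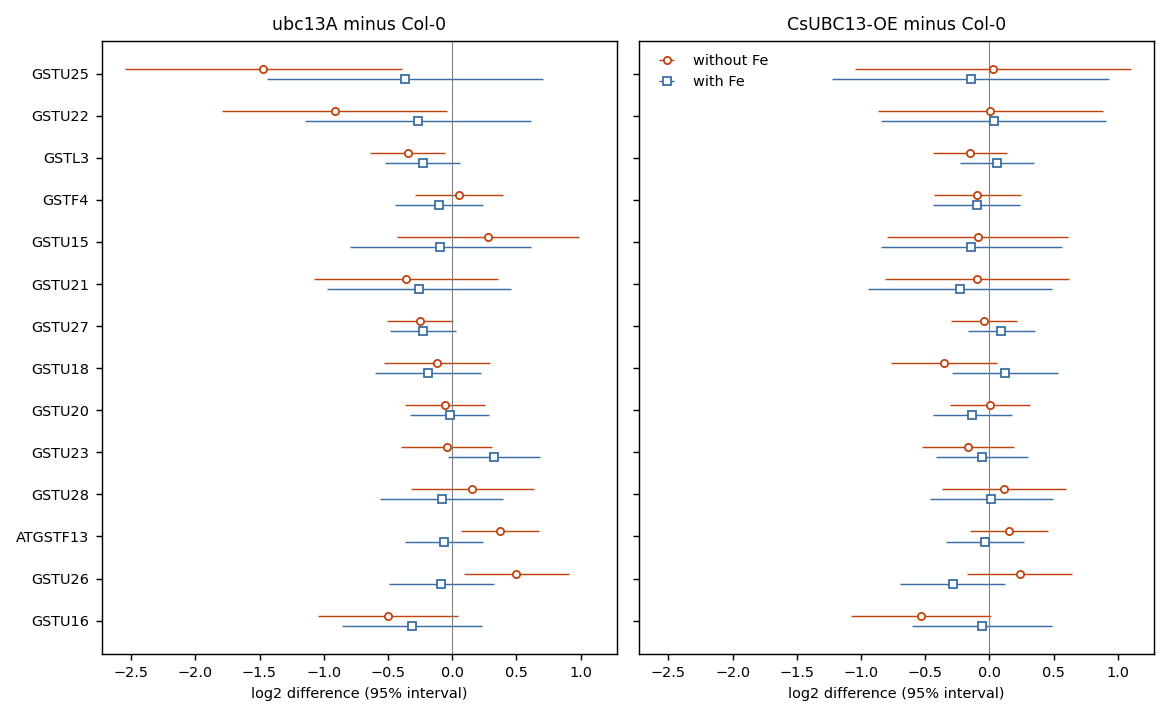
Log2 difference from Col-0 of ubc13A (left) and CsUBC13-OE (right) without Fe (circles) and with Fe (squares), with 95% intervals from the fit of 18 arrays. In ubc13A without Fe, GSTU25 (-1.47) and GSTU22 (-0.92) lie lowest and GSTU26 (0.50) highest; no difference passed the adjusted test.

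The Fe responses themselves were compared between lines as differences of differences. Against Col-0, 0 members differed in ubc13A by limma (0% of all probe sets called). The unadjusted p was under 0.05 for 1254 of the 22746 probe sets and for 2 members: GSTU26, with a difference of 0.59 (95% interval 0.0056 to 1.16), and ATGSTF13, with 0.44 (0.012 to 0.87), both with an adjusted p of 0.888. Both fell in Col-0, and in ubc13A GSTU26 stood at -0.22 and ATGSTF13 at -0.17. GSTU25 differed by -1.10, with an interval from -2.62 to 0.42 (adjusted p = 0.928), and GSTU22 by -0.65 (-1.89 to 0.59). In CsUBC13-OE 0 members differed (0.0044% of all probe sets called), and 0 had an unadjusted p under 0.05, against 605 of the 22746 probe sets. GSTU26, ATGSTF13 and GSTL3 passed in Col-0 alone, and by this test that is not shown to be a difference between lines.

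Members that lie side by side in the genome did not share one pattern. By gene order in the RefSeq table, GSTU25 and GSTU26 are direct neighbours on chromosome 1, and in the mean Fe response GSTU25 rose while GSTU26 fell. GSTU20, GSTU21, GSTU22 and GSTU23 form a run with no other coding gene between them. In this run GSTU22 alone had a mean difference past 0.2 in size (0.62), which did not pass limma's test. The intervals of GSTU20, GSTU21 and GSTU23 given above do not exclude a change past 0.2, so a difference within the run is not shown. Near-identical copies can share signal on an array. All 14 probe sets carry the suffix of sets not marked as shared between genes, but no probe sequence was examined, and shared signal was not tested.

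Likeness between members was described by correlating their deviations from the group means over the 18 arrays, in which all genes of an array share its RNA sample and its scaling. Over the 91 pairs the median correlation was 0.04, with a range from -0.59 to 0.97. The highest was that of GSTU25 and GSTU22, at 0.969 over all arrays, 0.985 over the 12 arrays of CsUBC13-OE and Col-0, and 0.771 over the 6 of ubc13A. It was the single pair above 0.8 over all 18 arrays. The next were GSTU28 with ATGSTF13 (0.629) and GSTU16 with GSTU22 (0.626). GSTU25 and GSTU22 share high replicate 1 arrays in CsUBC13-OE and Col-0, and the part of these in their correlation was not tested. Over the 6 ubc13A arrays GSTU25 correlated at 0.955 with ATGSTF13, 0.902 with GSTU21 and 0.778 with GSTU28, all above its 0.771 with GSTU22, and at -0.926 with GSTU23. Over the 12 arrays of CsUBC13-OE and Col-0 it correlated at -0.614 with ATGSTF13, 0.532 with GSTU21, -0.437 with GSTU28 and -0.0552 with GSTU23. Correlations over so few arrays are imprecise.

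The wider glutathione pathway was followed through lists of 54 genes, of which 6 had a probe set of their own in the annotation used. These were 1 of 11 genes of glutathione synthesis and breakdown, 2 of 13 of glutathione and ascorbate reduction, and 3 of 16 of sulfate assimilation and cysteine synthesis. None of the 14 listed detoxification partners and regulators had a probe set named for it in that annotation. In each line limma called 1 of the 6 higher and 1 lower without Fe. Of all probe sets it called 3.72% in ubc13A, 4.33% in CsUBC13-OE and 4.26% in Col-0. APS3, which encodes an ATP sulfurylase of the first step of sulfate assimilation, had signals of 764.4 ± 36.0 in ubc13A without Fe against 341.9 ± 26.2 with Fe (SD, n = 3). It had 1086 ± 35 in CsUBC13-OE without Fe against 320.7 ± 46.3 with Fe, and 1012 ± 15 in Col-0 without Fe against 351.8 ± 23.3 with Fe. The mean log2 change of APS3 was 1.44 (SE 0.062, adjusted p = 2.3e-10 by limma).

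SIR, which encodes sulfite reductase, an enzyme with an iron-sulfur cluster and a siroheme, went the opposite way. It had 1976 ± 126 in ubc13A without Fe against 2993 ± 405 with Fe, 1605 ± 221 in CsUBC13-OE without Fe against 3876 ± 361 with Fe, and 1626 ± 125 in Col-0 without Fe against 3724 ± 140 with Fe (SD, n = 3). SIR fell in all 3 lines, and its mean change was -1.02 (SE 0.073, adjusted p = 8.39e-08 by limma). Its difference in response between ubc13A and Col-0 was 0.60 (95% interval 0.22 to 0.98, adjusted p = 0.729). The glutathione reductase genes GR1 (-0.027) and GR2 (0.0066), the ATP sulfurylase gene APS4 (-0.040) and the glutathione-degrading cyclotransferase gene GGCT2;3 (-0.065) did not pass in the mean Fe response. In a comparison made after the values were seen, GR1 and APS4, 2 of the 6 pathway genes, were also highest on the replicate 1 array in each of the 4 groups of CsUBC13-OE and Col-0, an order that 5.5% of all probe sets have. For GR1 the signals were 6090, 4029 and 3996 in CsUBC13-OE without Fe against 5268, 4198 and 3913 with Fe, and 5268, 3520 and 3936 in Col-0 without Fe against 4586, 3923 and 3750 with Fe. For APS4 in CsUBC13-OE without Fe the signals were 5148.1, 5041.6 and 5146.6, so replicate 1 was there nearly level with replicate 3.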

How the data were processed

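Root RNA was hybridised to single-colour Affymetrix ATH1 arrays after biotin labelling, per the labels' protocols. Each array's file, as deposited, holds an intensity on a linear scale for every probe set; the software and any further step are not given in the sources used here. From the values, arrays had been scaled but not quantile normalized. The 64 control probe sets of 22810 were left out. Genes were named from the platform annotation, and all 14 members were found by Entrez number among RefSeq's TAIR10.1 genes. The array names no build, so no coordinates are given.

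Values were taken as log2(signal + 16); on this scale fold changes of dim genes are understated. Group means were fitted with limma 3.58.1 in R 4.3.3 over 18 arrays (12 residual degrees of freedom), with 12 contrasts, each adjusted over 22746 probe sets. P-values measure the spread between samples labelled as biological replicates. Fits were tested on simulated data. Figures used Python 3.11.15 and matplotlib 3.10.9.

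Members, lists and tests were chosen with earlier results of these data known. Genes were named if called in any contrast, if among the 6 brightest, or if among the 3 largest differences in the mean Fe response or in a genotype difference averaged over supplies; the remaining members are given for completeness. Replicate numbers were taken to pair Col-0 arrays with and without Fe, since arrays of one number, each less its group mean, correlated at 0.261, 0.112 and 0.153. They were also taken to pair Col-0 with CsUBC13-OE without Fe, at 0.297, 0.201 and 0.107, all over 0.1. Col-0 with Fe and CsUBC13-OE without Fe passed this mark too, at 0.215, 0.107 and 0.116. No other pair of groups passed it, and Col-0 and CsUBC13-OE with Fe stood at 0.287, -0.0266 and -0.0202. Correlations of differently numbered arrays are not given here. The pairing comes from the data, not the labels. Alternatives were the normalization, a filter on dim probe sets, pseudocounts of 1 and 64, moderation with a trend, replicate blocks, fits of the compared groups alone and leaving out arrays.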

Additional observations from a re-analysis of the deposited data

How the results depend on the processing

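The counts of members called in the mean Fe response (5) stayed within 1.5 times of that value under every alternative run, from 4 to 6 when 1 array was left out. The genotype comparisons and the differences between Fe responses gave 0 members under every alternative. In Col-0 the count of 3 became 5 with a replicate block over all arrays, 4 with one set within each genotype (without GSTU26, adjusted p = 0.0558) and 0 in a fit of the compared groups alone, and ran from 0 to 2 when 1 array was left out. In CsUBC13-OE the count of 0 became 2 with that replicate block and 2 without the replicate 1 arrays (GSTU25 and GSTU22 in both), and 3 with a replicate block set within each genotype, the last of which, like leaving out the replicate 1 arrays, was chosen after seeing the data; it ran from 0 to 2 without 1 array. A pairing by number of CsUBC13-OE arrays with and without Fe is not shown. The correlations of same-numbered arrays were 0.202 for replicate 1 and -0.0592 and -0.0126 for replicates 2 and 3. In ubc13A the count of 0 became 1 (GSTL3) after median centring, without the dimmest 40% of probe sets, with a pseudocount of 64, with a trend and robust moderation, and with the replicate block, and ran from 0 to 1 without 1 array. In the mean Fe response GSTU16 was lost under quantile normalization and median centring, the median of all probe sets moved from -0.047 to -0.013 and 0.011, and the replicate block added GSTU22 (adjusted p = 0.00296) and changed no other call. Leaving out the dimmest 40% of probe sets also added GSTU22 (adjusted p = 0.0461 by limma) and took GSTU16 out of the test. The mean Fe difference of GSTU27 changed sign to 0.025 after median centring and to 0.037 without the replicate 1 arrays, the ubc13A difference of GSTU25 with Fe to 0.093 without the replicate 1 arrays, and the averaged CsUBC13-OE difference of GSTU21 changed sign to 0.072 without CsUBC13-OE with Fe replicate 2 (range -0.34 to 0.072); none of these passed the test. Among the dim members, the mean Fe difference changed sign without the replicate 1 arrays for GSTU15 (to -0.067) and GSTU18 (to 0.018). It also did so for GSTU18 under quantile normalization (to 0.022) and for GSTU21 with a pseudocount of 64 (to -0.0036), without passing. The cause of these changes was not tested. Over all probe sets, calls of Fe responses moved by over 1.5 times in fits of the compared groups alone (ubc13A 419 against 847, CsUBC13-OE 438 against 984, Col-0 595 against 970) and without the replicate 1 arrays (397, 640 and 528, and 1907 against 3241 for the mean), fits with fewer samples. Calls of ubc13A against Col-0 without Fe ran from 0 to 126 around 11, with Fe from 0 to 36 around 3, and averaged over supplies from 3 to 473 around 165. No other comparison between lines gave over 6. Naming members by RefSeq symbol gave the same 14, and no member had a second probe set. The filter on dim probe sets kept 10 of the 14 members. Low signals limit GSTU15, GSTU16, GSTU18 and GSTU21.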
